A study of Mus musculus with 16 samples.

Results

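Plac9a, Prxl2a and Lrtm1 are 3 protein-coding genes of mouse chromosome 14 whose transcripts stood far apart between Clock mutant and wild-type (WT) hearts. They were chosen for that genotype difference, and are measured by the probe sets whose only listed gene symbol is one of these names. These are 5 of 23521 probe sets with a single symbol, 3 for Plac9a and 1 each for Prxl2a and Lrtm1, or 3 of 22180 genes. Clock itself lies on chromosome 5.

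Myocardium was taken from 16 mice labelled C57Bl/6J, with 4 mice in each group and 1 Affymetrix array per mouse. The groups were Clock mice (labelled transgenic, delta 19/delta 19) on a high-fat diet (HFD), Clock mice on standard chow, WT mice on HFD and WT mice on standard chow. All mice had eaten their diet for 24 weeks, were 32 weeks old, and were killed 7 hours after lights on. The sources used here give no number of backcrosses, no sex and no litters. Whether the DNA of chromosome 14 differs between the genotypes was not analysed here.

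CLOCK pairs with BMAL1 to activate genes of the circadian clock through E-box sequences, and the delta 19 allele encodes a CLOCK protein that binds its partner but activates transcription poorly. The 3 genes are not parts of the core clock. Plac9a encodes a small protein of a placenta-enriched family with a signal for secretion. Prxl2a (older names Fam213a and Pamm) encodes a peroxiredoxin-like protein with a thioredoxin fold that takes part in redox control. Lrtm1 encodes a membrane protein with leucine-rich repeats outside the cell and a transmembrane segment.

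The sequences just upstream of the 3 genes are shown because the genes were chosen for a difference between genotypes of a clock factor. Each is the 250 bases before an annotated start, read 5′ to 3′ on the gene's strand, from RefSeq on GRCm38.p6, and capitals mark a match to any of 4 motifs searched on both strands.
Plac9a (chr14:25902894-25903143, minus strand): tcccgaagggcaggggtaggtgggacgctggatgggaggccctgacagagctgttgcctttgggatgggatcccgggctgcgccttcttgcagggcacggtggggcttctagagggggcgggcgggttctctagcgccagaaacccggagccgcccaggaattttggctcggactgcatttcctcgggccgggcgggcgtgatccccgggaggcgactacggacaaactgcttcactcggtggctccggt
Lrtm1 (chr14:29017958-29018207, plus strand): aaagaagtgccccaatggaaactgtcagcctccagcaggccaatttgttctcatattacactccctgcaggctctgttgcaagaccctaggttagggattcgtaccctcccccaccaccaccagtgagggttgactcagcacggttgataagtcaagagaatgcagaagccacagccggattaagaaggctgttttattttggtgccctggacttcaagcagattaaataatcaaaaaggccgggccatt
Prxl2a (chr14:41013834-41014083, minus strand): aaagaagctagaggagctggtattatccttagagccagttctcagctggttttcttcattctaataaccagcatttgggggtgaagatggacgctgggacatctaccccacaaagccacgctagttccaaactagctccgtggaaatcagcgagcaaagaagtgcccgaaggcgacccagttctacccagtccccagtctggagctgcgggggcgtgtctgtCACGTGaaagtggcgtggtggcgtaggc
The motifs were the E-box CACGTG, its variant CACGTT, the D-box TTATGTAA and the half-site AGGTCA of nuclear receptors such as REV-ERB, and none of these overlaps another in the windows shown. The Prxl2a window held 1 CACGTG, 28 to 23 bases before the start. The window of the second annotated start of Prxl2a overlaps this one and holds the same single CACGTG site, 57 to 52 bases before that start. The windows of its 3 other starts held none of the 4 motifs. The windows of Plac9a and Lrtm1 held none of them either. Over all genes in the promoter table, 6.86% had CACGTG in at least 1 window of this length, 4.50% had CACGTT, 0.977% had TTATGTAA and 15.8% had AGGTCA. A match here is a description of letters and not of binding.

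Plac9a has copies with the same sequence around their starts. RefSeq lists 3 genes with the older name Plac9 on chromosome 14, namely Plac9a, Gm9780 and Plac9b. The 300-base windows around the starts of Gm9780 and Plac9b were identical in all 300 bases, and each matched that of Plac9a in all of the 222 bases that overlap, with the start annotated 78 bases apart. The platform annotation gives all 3 probe sets to Plac9a and lists neither other copy. 2 of these probe sets held the same value in 16 of 16 arrays, and the third differed from them by at most 0.111. The values below called Plac9a are the mean of the 3 probe sets, and whether the probes tell the copies apart was not tested.

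Each probe set's values are centred on their median over the 16 arrays, so they compare hearts on a log2 scale but give no abundance, and a level cannot be compared between genes. No source used here names the base or the sign of the logarithm, and base 2 with higher values for higher expression was assumed. The median of an array ranged from -0.00154 to 0.00281 and its standard deviation from 0.111 to 0.159. The 2 widest arrays were WT chow replicates 2 and 4. As a check of the genotype labels, 11 of 12 clock genes passed for the average genotype difference (3.88% of all genes passed). Of these 8 were lower and 3 higher in Clock hearts, with Dbp at -2.39 ± 0.19 (SE). On HFD 11 of the 12 passed (1.90% of all genes) and on chow 5 (0.491% of all genes). The diet labels were not checked in this way. The labelled tissue could not be checked against marker levels because the values are centred.

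Plac9a was high in every Clock heart and low in every WT heart. In Clock hearts on HFD the 4 mice read 0.572, 0.597, 0.497 and 0.326, and on chow they read 0.798, 0.627, 0.640 and 0.864. In WT hearts on HFD they read -0.394, -0.472, -0.744 and -0.449, and on chow -0.538, -0.370, -0.326 and -0.454. The lowest Clock heart (0.326) lay 0.652 above the highest WT heart (-0.326), and that empty stretch was wider than the whole range within the 8 Clock hearts (0.538) or the 8 WT hearts (0.418). In whole tissue more cells of a type and more RNA per cell cannot be told apart.

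The difference between Clock and WT hearts in Plac9a was 1.01 ± 0.08 on HFD (2.02-fold) and 1.15 ± 0.08 on chow (2.23-fold), where ± is the standard error of a limma fit with 4 mice in each group. Group means were 0.50 ± 0.12 in Clock hearts and -0.51 ± 0.16 in WT hearts on HFD, and 0.73 ± 0.12 in Clock hearts and -0.42 ± 0.09 in WT hearts on chow (SD, n = 4 each). No test is given for this contrast in any of the 3 genes, since it chose them. The separate probe sets gave differences of 0.97 to 1.03 on HFD and 1.15 to 1.16 on chow.

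Prxl2a ran the other way, low in every Clock heart and high in every WT heart. In Clock hearts on HFD the 4 mice read -0.532, -0.480, -0.685 and -0.683, and on chow -0.413, -0.271, -0.271 and -0.455. In WT hearts on HFD they read 0.271, 0.316, 0.376 and 0.339, and on chow 0.457, 0.806, 0.534 and 0.616. The highest Clock heart (-0.271) lay 0.542 below the lowest WT heart (0.271). The 4 groups followed each other without overlap, with Clock hearts on HFD lowest, then Clock hearts on chow, WT hearts on HFD and WT hearts on chow. The break between the genotypes is there by choice of the gene. HFD and chow did not overlap for 5.31% of all genes in Clock hearts and for 5.30% in WT hearts. The share of all genes with 4 separate groups was not counted.

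The difference between Clock and WT hearts in Prxl2a was -0.92 ± 0.07 on HFD (1.89-fold lower in Clock hearts) and -0.96 ± 0.07 on chow (1.94-fold lower). Group means were -0.59 ± 0.10 in Clock hearts and 0.33 ± 0.04 in WT hearts on HFD, and -0.35 ± 0.10 in Clock hearts and 0.60 ± 0.15 in WT hearts on chow (SD, n = 4 each).

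Lrtm1 followed the direction of Plac9a with a smaller step. In Clock hearts on HFD the 4 mice read 0.487, 0.427, 0.330 and 0.332, and on chow 0.343, 0.299, 0.200 and 0.377. In WT hearts on HFD they read -0.229, -0.244, -0.217 and -0.200, and on chow -0.510, -0.312, -0.279 and -0.377. The genotypes were separated by 0.400, and the WT hearts on HFD had the smallest spread of the 4 groups (SD 0.019, against 0.077 in Clock hearts on HFD, 0.077 in Clock hearts on chow and 0.102 in WT hearts on chow).

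The difference between Clock and WT hearts in Lrtm1 was 0.62 ± 0.06 on HFD (1.53-fold) and 0.67 ± 0.06 on chow (1.60-fold). Group means were 0.39 ± 0.08 in Clock hearts and -0.22 ± 0.02 in WT hearts on HFD, and 0.30 ± 0.08 in Clock hearts and -0.37 ± 0.10 in WT hearts on chow (SD, n = 4 each).

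**Figure D1:**
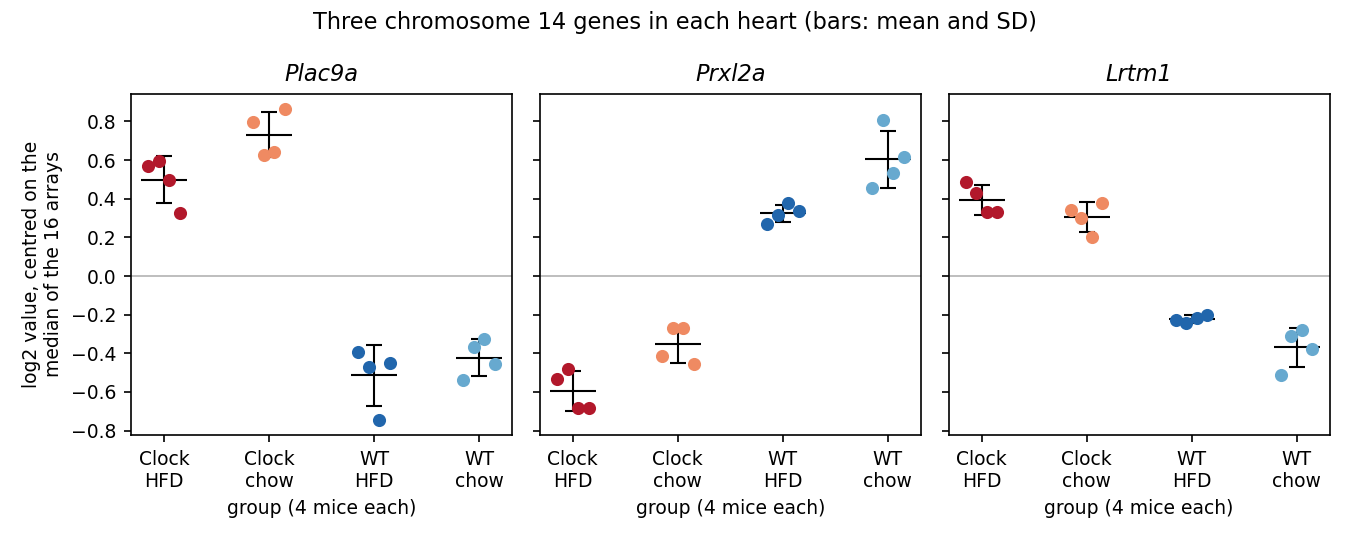
Log2 value of Plac9a, Prxl2a and Lrtm1 in each of the 16 hearts, centred on the median of the 16 arrays, with points for mice, horizontal bars for group means and whiskers for SD (n = 4 mice). The 8 Clock hearts lie between 0.326 and 0.864 for Plac9a, between -0.685 and -0.271 for Prxl2a and between 0.200 and 0.487 for Lrtm1, with no overlap with the WT hearts on the other side of 0.

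All 8 Clock hearts lay on one side of all 8 WT hearts for 162 of 22180 genes (0.730%), and these 3 genes are among them by choice. Ranked by the width of the empty stretch between the genotypes, Plac9a came 5th, Prxl2a 8th and Lrtm1 10th. The named genes with a wider stretch than Plac9a were Ano4 (0.954), a member of the anoctamin family, the clock output gene Dbp (0.733) and the carboxylesterase gene Ces1d (0.722). Ranked by the size of the average genotype difference, Plac9a was 12th, Prxl2a 19th and Lrtm1 47th. The residual standard deviation was 0.125 for Plac9a, 0.105 for Prxl2a and 0.075 for Lrtm1, against a median of 0.098 over all genes.

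For the diet, which played no part in choosing the genes, Prxl2a passed on average but in neither genotype alone. Averaged over the genotypes, Prxl2a fell on HFD by 0.26 ± 0.05 (1.20-fold, 95% interval -0.367 to -0.153, limma adjusted p = 0.0168), and every mouse on HFD was lower than every mouse on chow of its genotype. This average was added after the values per genotype were seen, and 341 of 22180 genes (1.54%) passed for it. Singly, neither genotype passed: the difference was -0.24 ± 0.07 in Clock hearts (adjusted p = 0.284) and -0.28 ± 0.07 in WT hearts (adjusted p = 0.111). Groups on HFD and on chow did not overlap for 5.31% of all genes in Clock hearts and for 5.30% in WT hearts. The share for which this held in both genotypes was not counted. With both of the widest arrays left out, WT chow replicates 2 and 4, the average was -0.21 and did not pass (adjusted p = 0.0654).

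Plac9a and Lrtm1 did not pass for the diet. Plac9a differed between HFD and chow by -0.23 ± 0.08 in Clock hearts (adjusted p = 0.390) and by -0.09 ± 0.08 in WT hearts (adjusted p = 0.780), and by -0.16 ± 0.06 on average (95% interval -0.286 to -0.041, adjusted p = 0.197). The 4 Clock hearts on HFD (0.326 to 0.597) lay below the 4 on chow (0.627 to 0.864), while those of WT hearts overlapped. Lrtm1 differed by 0.09 ± 0.06 in Clock hearts (adjusted p = 0.724) and by 0.15 ± 0.06 in WT hearts (adjusted p = 0.309), and by 0.12 ± 0.04 on average (95% interval 0.036 to 0.201, adjusted p = 0.158). Its WT hearts on HFD (-0.244 to -0.200) lay above those on chow (-0.510 to -0.279), and its Clock hearts overlapped. In the diet comparisons within a genotype 20 of 22180 genes (0.0902%) passed in Clock hearts and 78 (0.352%) in WT hearts.

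**Figure D2:**
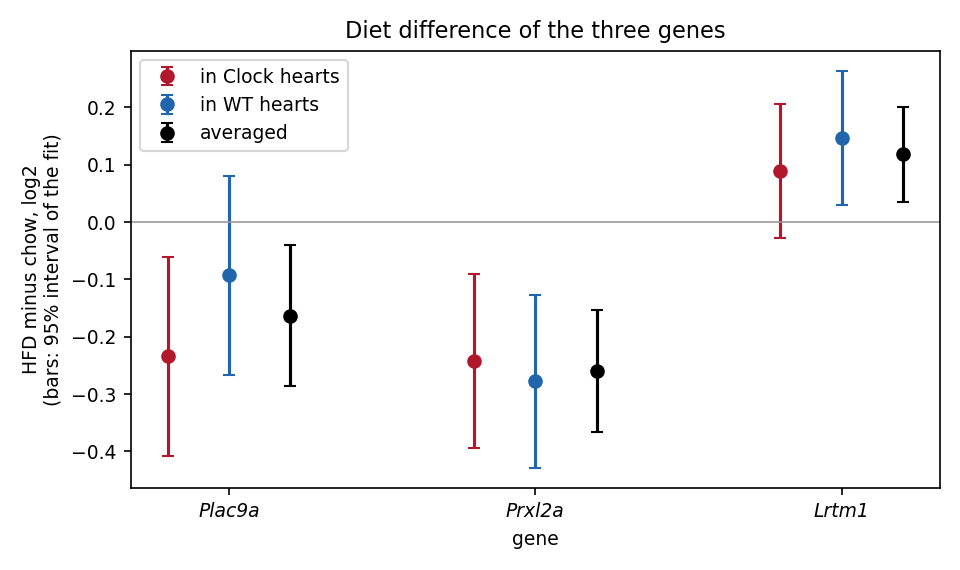
Log2 difference between HFD and chow for each gene, in Clock hearts, in WT hearts and averaged over both, with the 95% interval of the limma fit. For Prxl2a all 3 intervals lie below 0, from -0.429 at the lowest to -0.091 at the highest end, and for Plac9a in WT hearts and Lrtm1 in Clock hearts the interval spans 0.

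Whether the genotype difference changed with the diet was tested as an interaction, the Clock minus WT difference on HFD less that on chow. It was -0.14 ± 0.12 for Plac9a (95% interval -0.387 to 0.104, adjusted p = 0.982), 0.04 ± 0.10 for Prxl2a (-0.178 to 0.249, adjusted p = 0.999) and -0.06 ± 0.08 for Lrtm1 (-0.223 to 0.108, adjusted p = 0.999). With this limma fit 0 of 22180 genes (0%) passed for the interaction, and 1122 had an unadjusted p under 0.05. The genes were chosen on the same arrays.

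**Figure D3:**
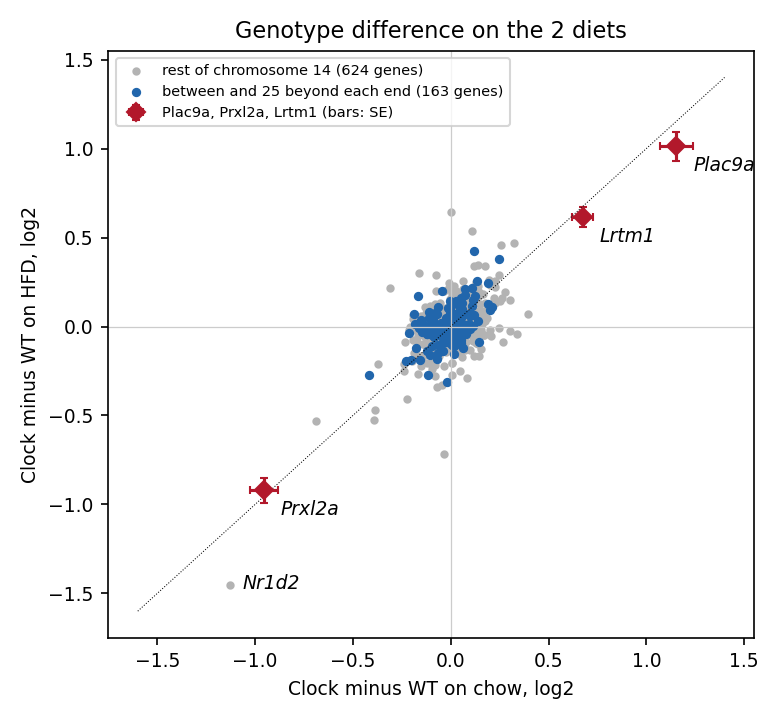
Clock minus WT difference on HFD against that on chow (log2) for the 790 measured genes of chromosome 14, with bars for the standard error of the 3 chosen genes and a dotted line where the diets are equal. The 3 chosen genes lie close to the line at 1.01, -0.92 and 0.62 on HFD against 1.15, -0.96 and 0.67 on chow. Their neighbours lie around 0, and the distance of the 3 genes from 0 comes from their choice.

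In the order of RefSeq genes along chromosome 14, 17 measured genes lie between Plac9a and Lrtm1 and 96 between Lrtm1 and Prxl2a. Few of these genes passed for the genotype, at about the share of all genes. For the difference averaged over the diets 5 of the 113 genes in between passed (4.42%), against 3.88% of all genes (861 of 22180). With the 25 measured genes beyond each end, 6 of 163 passed (3.68%), 4 higher and 2 lower in Clock hearts (2.44% and 1.44% of all genes), and 27 of the 624 genes in the rest of the chromosome passed (4.33%). The count over the 163 genes was 3 without Clock HFD replicate 1, 2 or 3, without WT HFD replicate 2, or without both of the widest arrays. At an adjusted p under 0.01 it was 2 (1.62% of all genes passed), and under 0.1 it was 10 (6.28% of all genes).

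The median absolute difference was 0.041 over the 163 neighbours and 0.044 over all genes. On HFD 2 of the 163 passed (1.23%, against 1.90% of all genes), and on chow the limma fit called 0 (0%, against 0.491% of all genes), with 12 at an unadjusted p under 0.05. The count on HFD was 0 without Clock HFD replicate 2 or 3 or WT HFD replicate 1, 2 or 4. It was 1 without any other HFD array, without Clock chow replicate 1, 2 or 3 or without WT chow replicate 1, and 4 without both of the widest arrays. The count on chow was 1 without that pair. By chromosome, the share of genes that passed ran from 2.22% on X to 5.45% on chromosome 1, with 4.56% on chromosome 14. Cut into 32 successive runs of up to 25 measured genes, chromosome 14 held 0 to 3 passing genes in each run, the chosen genes included.

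The genes next to the 3 on either side, leaving out predicted genes, did not pass for the genotype. Beside Plac9a lie Zcchc24 (0.03 ± 0.04, adjusted p = 0.817) and Ppifos (0.03 ± 0.07) on one side and the homeobox gene Cphx1 (-0.03 ± 0.03) and Slmap, which encodes a sarcolemmal membrane protein (-0.02 ± 0.04), on the other. Beside Prxl2a lie the tetraspanin gene Tspan14 (0.13 ± 0.06, adjusted p = 0.286), Sh2d4b (0.02 ± 0.06), Dydc2 (-0.05 ± 0.03) and Dydc1 (-0.03 ± 0.03). Lrtm1 lies on the plus strand inside the span of Cacna2d3, a calcium channel subunit gene on the minus strand. Cacna2d3 differed by 0.01 ± 0.05 (adjusted p = 0.978), with Lrtm1 at 0.65 ± 0.04 on the same average. Whether the probes tell the strands apart is not stated in the labels. The next genes were Wnt5a, a secreted signalling protein (0.05 ± 0.04), Selenok, a selenoprotein of the endoplasmic reticulum (0.00 ± 0.07), and Actr8, an actin-related chromatin remodelling protein (0.08 ± 0.05). Over these 12 neighbours the adjusted p was 0.286 or higher, and of all genes only 3.88% passed for the same average difference.

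The 6 neighbours that passed had smaller differences than the chosen genes. Nt5dc2, of the 5′-nucleotidase domain family, was lower in Clock hearts (-0.35 ± 0.09, adjusted p = 0.0395). Ogdhl, a homologue of the mitochondrial oxoglutarate dehydrogenase (0.31 ± 0.07, adjusted p = 0.0198), and the small nucleolar RNA gene Snord19 (0.27 ± 0.07, adjusted p = 0.0352) were higher. Oxnad1, of the NAD-binding oxidoreductases, was higher (0.22 ± 0.04, adjusted p = 0.00718), with its 8 Clock hearts above its 8 WT hearts by 0.009. Ghitm, a protein of the inner mitochondrial membrane, was higher (0.15 ± 0.04, adjusted p = 0.0395). Txndc16, which encodes a thioredoxin domain protein and lies beyond Prxl2a, was lower (-0.19 ± 0.04, adjusted p = 0.00619), with no overlap between the genotypes and a stretch of 0.029. With each array left out in turn, Oxnad1, Ogdhl and Txndc16 passed in 16 of 16 cases, Ghitm in 4 and Nt5dc2 and Snord19 in 6 each. Without both of the widest arrays Ogdhl (adjusted p = 0.110), Snord19 (0.0910) and Ghitm (0.151) did not pass.

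**Figure D4:**
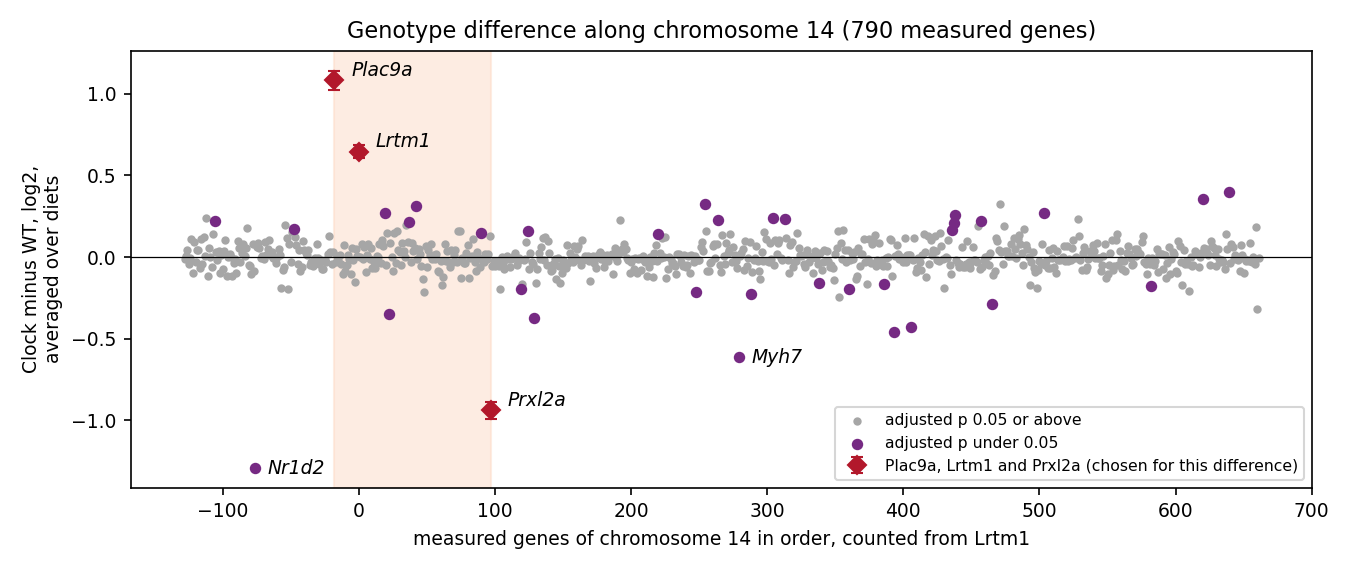
Clock minus WT difference averaged over the diets (log2) for the 790 measured genes of chromosome 14 in RefSeq order, counted in genes from Lrtm1, with the stretch from Plac9a to Prxl2a shaded and whiskers for the standard error of the 3 chosen genes. Outside the chosen genes, 2 genes exceed 0.6 in size, Nr1d2 at -1.29 and Myh7 at -0.61, and both lie outside the shaded stretch.

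For the diet averaged over the genotypes, 2 of the 163 neighbours passed (1.23%, against 1.54% of all genes). Ppif, which encodes cyclophilin D of the mitochondrial permeability pore, fell on HFD (-0.34 ± 0.06, adjusted p = 0.0108), and the calpain gene Capn7 rose (0.15 ± 0.03, adjusted p = 0.0404). Within a genotype 0 of the 163 passed for the diet by limma in either genotype, with 13 in Clock hearts and 19 in WT hearts at an unadjusted p under 0.05.

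Within the groups, Plac9a and Lrtm1 had the highest correlation of the 3 pairs over all 16 arrays. The deviations from the 4 group means correlated at r = 0.62 between Plac9a and Lrtm1, at 0.31 between Prxl2a and Lrtm1 and at 0.00 between Plac9a and Prxl2a, over 16 arrays that share their groups. In the 8 Clock hearts these values were 0.78, 0.05 and -0.03, and in the 8 WT hearts 0.47, 0.55 and 0.03. Each is a description with no test.

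The genes whose values ran most like each of the 3 over the 16 arrays were found by Pearson's r. Since the values of each of the 3 genes fall into 2 sets by genotype, a high r mainly says that a gene differs by genotype too. For Plac9a these were Wfs1, a protein of the endoplasmic reticulum membrane (r = 0.94), Lrtm1 (0.93), Tspan12 (0.93), Mal (0.93) and Plekhg1 (0.92), and the most opposite were Ano4 (-0.95), Ces1d (-0.92) and Vmn1r3 (-0.92). For Prxl2a they were the junctional adhesion gene Jam2 (0.96), Golm2 (0.95), the myosin light chain kinase gene Mylk4 (0.94), Ano4 (0.93) and Nr1d1, the clock repressor REV-ERB alpha (0.93). The most opposite to Prxl2a were Lrtm1 (-0.95), Wfs1 (-0.94) and the gelatinase gene Mmp2 (-0.93). For Lrtm1 they were Wfs1 (0.96), the potassium channel gene Kcnd2 (0.94), Plac9a (0.93), the glutamate transporter gene Slc17a7 (0.93) and Plekhg1 (0.91), and the most opposite were Jam2 (-0.96), Prxl2a (-0.95) and Ano4 (-0.93). Predicted genes were left out of this ranking. Apart from the 3 themselves, none of the genes named here lies on chromosome 14.

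With the group means removed the lists were different ones. The closest to Plac9a were Cdk1 (r = 0.83), B4galt7 (0.82), Nfe2 (0.82), Nfkb2 (0.81) and Rab8b (0.81). The closest to Prxl2a were Atp2b3 (0.86), Pbx4 (0.84), Sult2a6 (0.82), Rdh16f2 (0.82) and Dnah5 (0.81). The closest to Lrtm1 were Lrrc8c (0.89), P2rx2 (0.84), Greb1 (0.83), Lrrc39 (0.82) and Sppl2c (0.81). These are the highest over 16 arrays among the 22180 genes with predicted genes left out, and they have no test.

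Of 23 measured peroxiredoxin-like, thiol redox and other antioxidant genes, 5 passed for the average genotype difference (3.88% of all genes passed). In Clock hearts 4 of them were higher and 1 lower, and the list had a median of 0.03 against -0.00139 over all genes. The list includes Sod1, Sod2, Sod3 and Cat, which are antioxidant genes but not relatives of Prxl2a. On HFD 2 of the 23 passed, Sod3 and Txnrd1 (1.90% of all genes), and on chow limma called 0 (0.491% of all genes), with 5 at an unadjusted p under 0.05. Prxl2b, of the same family by name, was higher (0.27 ± 0.07, adjusted p = 0.0449), opposite to Prxl2a, and kept its call in 3 of 16 cases with an array left out. Prxl2c differed by -0.03 ± 0.03 (adjusted p = 0.789). The extracellular superoxide dismutase gene Sod3 (0.44 ± 0.06, adjusted p = 0.000691), the thioredoxin reductase gene Txnrd1 (0.18 ± 0.04, adjusted p = 0.0157) and the glutaredoxin gene Glrx5 (0.17 ± 0.04, adjusted p = 0.0448) were higher. Txnip, the inhibitor of thioredoxin, was lower (-0.28 ± 0.07, adjusted p = 0.0281). Sod3 and Txnrd1 passed in 16 of 16 such cases, Txnip in 10 and Glrx5 in 4, and without both of the widest arrays Txnrd1 (adjusted p = 0.0860), Prxl2b (0.220) and Glrx5 (0.231) did not. For the diet 1 of the 23 passed on average (1.54% of all genes), the superoxide dismutase gene Sod1 (0.14 ± 0.03 higher on HFD, adjusted p = 0.0423).

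Of 25 listed leucine-rich repeat transmembrane genes, 2 passed for the average genotype difference (3.88% of all genes passed), with a median of -0.02. The list was made by kind of protein, and kinship of its genes with Lrtm1 was not examined. On HFD 1 of the 25 passed, Lrrc8a (1.90% of all genes), and on chow limma called 0 (0.491% of all genes), with 3 at an unadjusted p under 0.05. Lrrc8a, a subunit of the volume-regulated anion channel, was higher in Clock hearts (0.26 ± 0.06, adjusted p = 0.0131) and Lrrc4b, a synaptic adhesion protein, was lower (-0.23 ± 0.06, adjusted p = 0.0461). Lrrc8a passed in 16 of 16 cases with an array left out and Lrrc4b in 3, and neither passed without both of the widest arrays (adjusted p = 0.0689 and 0.136). Lrrc4b also fell on HFD on average (-0.36 ± 0.06, adjusted p = 0.00832), as the only 1 of the 25 to pass for that contrast (1.54% of all genes). Lrtm2, the closest to Lrtm1 by name, differed by -0.03 ± 0.04 (adjusted p = 0.724). Of the 3 measured genes that share the placenta-specific name with Plac9a, 0 passed by limma in any of the comparisons, with 0 at an unadjusted p under 0.05, and their median genotype difference was -0.04.

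Some markers of endothelial cells and fibroblasts passed for the genotype. For the average difference 5 of 10 endothelial and 4 of 10 fibroblast markers were higher in Clock hearts (2.44% of all genes were), with medians of 0.20 and 0.22. On HFD 3 endothelial markers (Esam, Robo4 and Cldn5) and 0 fibroblast markers passed by limma (1.90% of all genes). On chow 0 of either list passed (0.491% of all genes). By limma 8 endothelial and 4 fibroblast markers on HFD, and 7 and 7 on chow, had an unadjusted p under 0.05. The mean of the endothelial list ran from -0.034 to 0.148 in Clock hearts on HFD and from 0.034 to 0.176 in Clock hearts on chow, against -0.257 to -0.177 in WT hearts on HFD and -0.092 to 0.047 in WT hearts on chow. The mean of the fibroblast list ran from -0.061 to 0.240 in Clock hearts on HFD and from -0.003 to 0.094 in Clock hearts on chow, against -0.197 to 0.143 in WT hearts on HFD and -0.266 to -0.092 in WT hearts on chow. Of 10 cardiomyocyte markers Ryr2 alone passed and was higher (0.17 ± 0.03), with a list median of 0.03. Of 8 smooth muscle and pericyte markers Abcc9 alone passed and was lower (-0.34 ± 0.05). The median of that list went the other way (0.11), and by limma 6 of the 8 had an unadjusted p under 0.05. Of 5 atrial, 10 skeletal muscle, 10 macrophage, 7 adipocyte, 3 nerve and 4 blood markers limma called 0, with at most 1 of each list at an unadjusted p under 0.05. For the diet average, Postn of the fibroblast list, Myl1 of the skeletal muscle list and Ryr2 were higher on HFD, and Kdr and Emcn of the endothelial list lower. These were 1 of 10 fibroblast, 1 of 10 skeletal muscle, 1 of 10 cardiomyocyte and 2 of 10 endothelial markers (1.54% of all genes passed). The list medians were 0.104, -0.023, -0.008 and -0.085 in that order, so Myl1 and Ryr2 lay opposite to the medians of their lists. The part of these cells in the values of the 3 genes was not tested.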

How the data were processed

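The deposited table holds log2 values from 16 Affymetrix arrays, made from 500 ng of total RNA each per the labels' protocols. Every probe set has a median of 0 over the arrays within 5e-07. How the authors corrected background and normalized the arrays is not stated in the labels. Of 34351 probe sets, 23521 have 1 gene symbol in the platform annotation and were averaged per gene (22180 genes), while 1814 with several symbols and 9016 with none listed were left out. Probe sets that list a member among several symbols numbered 0. Gene order and names came from RefSeq on GRCm38.p6 through gene IDs, with no match for 186 genes.

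The 4 group means of every gene were fitted with limma 3.58.1 in R 4.3.3 (residual degrees of freedom 12, prior 4.16). P-values were two-sided and were adjusted by Benjamini-Hochberg over the 22180 genes, and a gene passed under 0.05. The labels call the mice biological replicates. The fit was tested on simulated data. Members and lists were chosen with earlier results of these data known. The genes named were the members, their 2 nearest measured neighbours on each side, overlapping genes, up to 12 passing neighbours, the genes most like each member and the related genes that passed, without predicted genes. Capn7, Ppif, Nr1d2, Myh7 and the marker genes were named after their values were seen. Python 3.11.15 and matplotlib 3.10.9 drew the figures.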

Additional observations from a re-analysis of the deposited data

How the results depend on the processing

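The other settings were moderation with trend and robust, array weights, a further quantile normalization, only the 8 arrays compared, the replicate number as a block, probe sets one by one and each array left out. Added after seeing the data were leaving out WT chow replicates 2 and 4 together and counting the identical probe sets of Plac9a once. Probe sets with several symbols gave nothing to add. The genotype differences kept their sign in all of these, at 1.05 to 1.12 for Plac9a, -0.96 to -0.88 for Prxl2a and 0.62 to 0.66 for Lrtm1 on average, and Prxl2a on chow was -0.85 without WT chow replicates 2 and 4. No diet difference within a genotype passed in any setting (adjusted p from 0.0872 to 0.978). The average diet difference of Prxl2a passed in all settings (adjusted p from 0.0112 to 0.0390) but without those 2 arrays (-0.21, adjusted p = 0.0654). The interaction of Prxl2a, 0.04 and not called, turned to -0.056 with quantile normalization and -0.072 without the 2 arrays, and ran from -0.032 to 0.084 with each array left out.

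The count of 6 neighbours on chromosome 14 was 2 at a threshold of 0.01, 10 at 0.1, 3 without the 2 arrays and 3 to 8 with each array left out. The count of 2 on HFD was 1 with trend and robust, with the replicate block, with only the 8 arrays or with probe sets one by one. It was 5 with 50 genes beyond each end, 0 at a threshold of 0.01, 5 at 0.1, 4 without the 2 arrays and 0 to 3 with each array left out. The count of 0 on chow was 1 without the 2 arrays. Same-numbered replicates of different groups correlated at -0.149 to 0.163 in their deviations from the group means, with 3 of 24 pairs above 0.1. Low values of this kind cannot show whether same-numbered mice shared a litter or a batch, and the main fit used no pairing. With the replicate block the average diet difference of Prxl2a had an adjusted p of 0.0184 and the neighbour count was 5. The cause of these changes was not tested, and the number of arrays limits what can be seen.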

Other observations

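Identical values in several probe sets are common in the table: 931 of 34351 probe sets share all 16 values with at least 1 other, as 2 of the 3 probe sets of Plac9a do. A probe set counted this way adds no separate measurement, and with the identical pair counted once the average difference of Plac9a between Clock and WT hearts was 1.08.

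Wfs1, which encodes a membrane protein of the endoplasmic reticulum, was the named gene most like Plac9a and Lrtm1 over the 16 arrays and the second most opposite to Prxl2a. Its average genotype difference was 0.53, and it lies on chromosome 5, as Clock does. On that chromosome 54 of 1261 genes passed for the average difference (4.28%, against 3.88% of all genes). Whether the place of Wfs1 bears on its difference was not tested.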
